A study of Mus musculus with 14 samples.

Results

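The genes described here are 9 components of the retinoic acid (RA) pathway, taken by gene symbol from 23152 RefSeq loci in each RNA-seq table: the receptors *Rara*, *Rarb* and *Rarg*, the RA-degrading enzymes *Cyp26a1* and *Cyp26b1*, the RA-synthesizing enzyme *Aldh1a2*, the cellular RA-binding proteins *Crabp1* and *Crabp2*, and the retinaldehyde reductase *Dhrs3*. All 9 were found, each as 1 locus. The study asked whether the core promoter factor TAF9B, a subunit of complexes that regulate transcription, is needed for neuronal gene expression. Mouse C57BL/6 embryonic stem (ES) cells were sequenced undifferentiated and as embryoid bodies (EBs) at days 2, 4 and 6 of a culture that yields neuronal progenitors and motor neurons, with wild-type (WT) cells of the JM8 clone and TAF9B -/- (KO) cells of the single clone Taf9b_BG10. Lumbar spinal column tissue of newborn littermates labelled WT or TAF9B -/- was also sequenced, as was newborn WT spinal cord of no stated level. TAF9B and RNA polymerase II (POL2) were mapped by ChIP-seq in WT EBs of the HBG3 clone, whose cells carry a GFP reporter driven by the *Mnx1* promoter. Each condition is 1 library, 11 for RNA and 1 for each ChIP antibody used here, so no difference below could be set against replicate spread and none was tested. Depth is unknown because the tables hold FPKM values (fragments scaled to transcript length and library size) and no read counts.

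RA enters the nucleus bound to CRABP proteins and binds retinoic acid receptors (RARs), which sit with retinoid X receptors (RXRs) on DNA at pairs of short direct repeats and switch from repression to activation when the ligand arrives. ALDH1A2 makes RA from retinaldehyde, DHRS3 returns retinaldehyde to retinol, and CYP26 enzymes destroy RA, and several of these genes are themselves switched on by RA, which gives the pathway its feedback. In the developing spinal cord RA from the neighbouring mesoderm promotes neural differentiation and hindbrain and spinal cord identity, and in this culture RA was added to the medium with SAG, an agonist of the Sonic hedgehog pathway. The methods give no separate day on which RA was added.

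RARs are known to bind paired direct repeats, and letter matches to such repeats are shown here at 4 of the 9 genes. The search was for a unit of 6 letters repeated in the same direction on either strand. The unit could be AGGTCA, the consensus, or a variant spelled AGTTCA, a variant spelled GGTTCA or a variant spelled GGGTCA. The repeats were separated by 5 bases (DR5), 2 bases (DR2) or 1 base (DR1). A DR5 was present in 52 of 69978 windows (0.0743%) from 250 bases before to 50 bases after the start sites of all coding transcripts, many of which overlap, in 10 of 10402 TAF9B peaks (0.0961%) and in 22 of 8609 POL2 peaks (0.256%). Of 30 such windows of the 9 genes, 1 of *Rarb* and the only window of *Cyp26a1* held a DR5, and none held a DR2 or a DR1. The peaks differ in width, with a median of 217 bp for TAF9B and 686 bp for POL2, so shares of peaks are not shares per base. Within 50 kb of the 9 genes lay 24 TAF9B peaks and 43 POL2 peaks. A DR5 lay in 1 of these TAF9B peaks, in an intron of *Rara* upstream of its internal start sites. A DR5 also lay in 4 of these POL2 peaks, at *Rara*, *Rarb*, *Cyp26a1* and *Dhrs3*. The *Dhrs3* peak also held a DR1, and a POL2 peak beyond the end of *Cyp26a1* held a DR2. The sequences follow in build mm9, 5′ to 3′ on the strand of the gene, with the DR5 in capitals. They are the 250 bases before the start site of *Rarb* (chr14:17407987-17408236, minus strand) and of *Cyp26a1* (chr19:37772048-37772297, plus strand), the whole TAF9B peak in *Rara* (chr11:98821201-98821444, plus strand), and the *Dhrs3* intronic element with 40 bases on each side (chr4:144488238-144488334, plus strand).

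Rarb promoter: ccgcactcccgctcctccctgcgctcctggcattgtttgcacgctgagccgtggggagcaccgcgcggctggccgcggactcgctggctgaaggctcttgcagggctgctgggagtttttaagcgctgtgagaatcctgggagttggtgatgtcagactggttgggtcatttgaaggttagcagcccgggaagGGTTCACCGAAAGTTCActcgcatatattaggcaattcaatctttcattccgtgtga

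Cyp26a1 promoter: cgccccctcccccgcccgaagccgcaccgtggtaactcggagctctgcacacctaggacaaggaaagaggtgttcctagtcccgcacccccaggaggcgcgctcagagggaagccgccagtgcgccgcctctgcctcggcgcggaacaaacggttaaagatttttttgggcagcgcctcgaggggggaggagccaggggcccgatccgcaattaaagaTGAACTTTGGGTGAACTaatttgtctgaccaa

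Rara TAF9B peak: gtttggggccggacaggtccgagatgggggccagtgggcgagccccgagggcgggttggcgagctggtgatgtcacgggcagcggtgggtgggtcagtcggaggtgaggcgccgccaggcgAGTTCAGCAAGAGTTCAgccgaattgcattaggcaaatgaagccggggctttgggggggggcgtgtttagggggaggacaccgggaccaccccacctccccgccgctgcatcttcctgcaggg

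Dhrs3 intronic element: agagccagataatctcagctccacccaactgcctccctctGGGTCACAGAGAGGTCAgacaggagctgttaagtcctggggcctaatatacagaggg

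The *Rarb* element lay 57 to 41 bases before the start site and the *Cyp26a1* element 32 to 16 bases before it, the latter on the opposite strand. Read in the direct-repeat orientation, the *Rarb* and *Cyp26a1* elements shared 15 of 17 letters. The *Cyp26a1* and *Rara* elements shared 14 of 17 letters, and both used AGTTCA in both positions. The *Dhrs3* element, 5.16 kb downstream of the nearest start site of the gene, shared 13 of 17 letters with the *Rarb* element and 11 of 17 with the *Cyp26a1* element and with the *Rara* element. The *Rarb* and *Rara* elements shared 13 of 17. A match describes letters only and was not taken as a bound site.

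The targeted gene was read first, because the labels name its genotype. In the KO allele a *LacZ-Neo* cassette stands in place of its protein-coding exons. FPKM of the locus does not show which part of it the reads came from, so it is not a measure of intact *Taf9b* alone. In ES cells *Taf9b* measured 0.537 FPKM under the label WT and 3.06 FPKM under the label KO. In EBs it was at 0.516 against 4.08 FPKM at day 2, 1.96 against 4.27 FPKM at day 4 and 1.37 against 4.01 FPKM at day 6. In spinal column it was at 6.65 FPKM under the label WT and 3.31 FPKM under the label KO, and in spinal cord at 7.44 FPKM. *Taf9b* was thus higher in the library labelled KO in all 4 culture pairs and lower only in spinal column. All directions in culture below are therefore those of the libraries labelled WT and KO.

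Marker genes described the libraries as follows. ES cell markers (6 genes, with *Pou5f1* and *Nanog*) summed to 1138 to 1412 FPKM in ES cells and day 2 EBs. At day 4 they summed to 33.3 FPKM under the label WT and 212 FPKM under the label KO, and at day 6 to 359 and 906 FPKM. Neural progenitor markers (6 genes) summed to 322 against 56.4 FPKM at day 4, and motor neuron markers (6 genes) to 76.2 against 3.01 FPKM at day 6, with *Chat* listed at 0 in the library labelled KO. Primitive endoderm and trophectoderm markers (8 genes) summed to 117 against 944 FPKM at day 6, almost all of it *Krt8* and *Krt18*. In spinal column, meninges and fibroblast markers (9 genes) summed to 3170 FPKM under the label WT and 2501 FPKM under the label KO, against 283 FPKM in spinal cord, with most of the sum in *Col1a1*, *Col1a2* and *Col3a1*, and skeletal muscle markers were also present, with *Myh3* at 420.5 FPKM under the label WT and 218 FPKM under the label KO, *Myog* at 92.8 and 116 FPKM and *Myod1* at 25.1 and 27.6 FPKM. The 6 muscle markers are not summed because 2 of them, not the same 2, were listed at 0 in each spinal column library. In spinal cord 3 of the 6 were above 1 FPKM, *Acta1* at 112 FPKM, *Ckm* at 14.7 FPKM and *Myh8* at 4.61 FPKM. In these mixed samples fewer cells of a type and less RNA per cell cannot be told apart, and the part that cell composition has in the results below was not tested.

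The 3 receptors followed different courses, and the largest swing was that of *Rarb*. *Rarb*, the receptor gene known as a direct RA target, was at 0.130 and 0.183 FPKM in ES cells labelled WT and KO and at 0.0696 and 0.0233 FPKM at day 2. At day 4 it had reached 48.0 FPKM under the label WT and 30.2 FPKM under the label KO, and at day 6 at 27.1 and 14.8 FPKM. It was at 2.97 and 3.37 FPKM in spinal column and at 3.59 FPKM in spinal cord. *Rarb* was thus near 0 before day 4 under either label, highest at day 4, and at an intermediate level in newborn tissue.

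*Rarg*, the receptor that predominates in ES cells, moved the opposite way at day 4. It was at 29.1 and 27.7 FPKM in ES cells labelled WT and KO, at 45.6 and 45.3 FPKM at day 2, at 7.32 and 23.8 FPKM at day 4 and at 21.3 and 62.6 FPKM at day 6. In spinal column it was at 10.8 and 12.3 FPKM, and in spinal cord at 3.96 FPKM, its lowest level. The pairs lay almost on top of each other in ES cells and at day 2, and the library labelled KO was 3.25-fold higher at day 4 and 2.94-fold higher at day 6.

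*Rara*, the most evenly expressed of the receptors, stayed between 6.03 FPKM in spinal cord and 40.6 FPKM in day 6 EBs labelled WT. It was at 14.7 and 11.4 FPKM in ES cells labelled WT and KO, at 13.9 and 15.2 FPKM at day 2, at 17.3 and 26.5 FPKM at day 4, at 28.3 FPKM at day 6 in the library labelled KO, and at 11.4 and 9.46 FPKM in spinal column. None of its 5 differences between labels passed 2-fold.

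On the FPKM scale, which divides by transcript length, the 3 receptors can be added. Their sum was 44.0 FPKM in ES cells labelled WT, 72.6 FPKM at day 4 and 89.0 FPKM at day 6, and its makeup turned over. *Rarg* supplied 66.3% of it in ES cells, 76.5% at day 2 and 10.1% at day 4, where *Rarb* supplied 66.1%. At day 6 *Rara* was the leading receptor with 45.6%. In the libraries labelled KO the sum was similar at day 4, 80.5 FPKM, but was spread over *Rarb* at 37.5%, *Rara* at 33.0% and *Rarg* at 29.6%, and at day 6 *Rarg* led again with 59.2% of 106 FPKM. Newborn tissue held less receptor transcript, 25.1 FPKM in each spinal column library and 13.6 FPKM in spinal cord, with *Rara* at 44.4% of the sum in cord. The tables of different days were normalized separately, so sums within a pair are more directly comparable than sums across days.

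**Figure D1:**
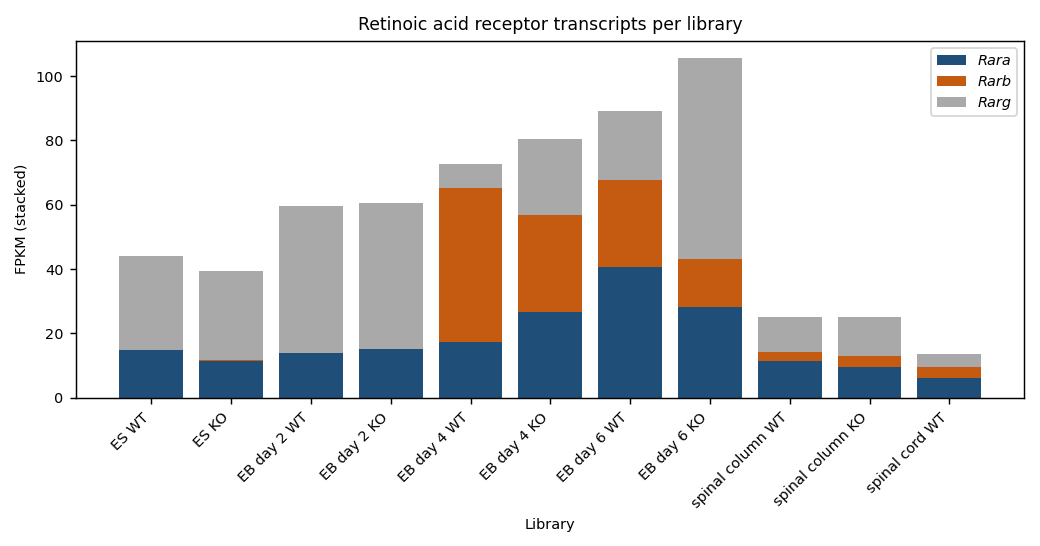
Stacked FPKM (vertical axis) of Rara, Rarb and Rarg in each of the 11 RNA-seq libraries (horizontal axis), 1 library per bar. Rarb is scarcely visible in ES cells and at day 2, makes up 66.1% of the bar at day 4 labelled WT, and Rarg is the largest share of the day 6 bar labelled KO.

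The RA-degrading enzymes were low in ES cells and high in late EBs. *Cyp26a1*, which hydroxylates RA and is a known early target of it, was at 1.19 FPKM in ES cells labelled WT, 3.89 FPKM at day 2, 96.2 FPKM at day 4 and 173 FPKM at day 6. In the libraries labelled KO the same points were 0.193, 0.209, 77.5 and 68.0 FPKM. It was at 0.316 and 0.620 FPKM in spinal column labelled WT and KO and was listed at 0 in spinal cord. *Cyp26a1* was thus lower under the label KO at all 4 culture points, by 6.18-fold in ES cells, 18.6-fold at day 2, 1.24-fold at day 4 and 2.54-fold at day 6, and before day 4 these are differences between low levels.

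*Cyp26b1*, the second RA hydroxylase, came up later. It was at 0.778 and 0.611 FPKM in ES cells labelled WT and KO, at 0.0633 and 0.0555 FPKM at day 2 and at 6.15 and 6.78 FPKM at day 4. At day 6 it reached 67.3 FPKM under the label WT and 15.9 FPKM under the label KO. The 2 libraries were close until day 4 and stood 4.23-fold apart at day 6. In newborn tissue *Cyp26b1* was the more abundant CYP26 transcript, at 2.96 and 2.81 FPKM in spinal column and 5.23 FPKM in spinal cord.

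The RA-binding proteins gave the highest levels of the 9 genes. *Crabp2*, which carries RA to the receptors, was at 12.7 and 14.2 FPKM in ES cells labelled WT and KO and at 16.6 and 22.6 FPKM at day 2. At day 4 it had reached 1800.1 FPKM under the label WT and 843 FPKM under the label KO, and at day 6 at 552 and 68.7 FPKM. Spinal column had 11.1 and 13.7 FPKM and spinal cord 17.7 FPKM. *Crabp2* was therefore a sharp day 4 peak, and by day 6 the library labelled KO was 8.03-fold lower, the largest difference between labels among these 9 genes where both libraries were above 10 FPKM.

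*Crabp1*, which binds RA in the cytoplasm and is linked to its breakdown, was high throughout. It was at 42.5 and 32.5 FPKM in ES cells labelled WT and KO, at 54.8 and 69.6 FPKM at day 2, at 354 and 194 FPKM at day 4 and at 483 and 143 FPKM at day 6. In spinal column the labels were alike, at 42.9 and 41.9 FPKM, and spinal cord had 129 FPKM. *Crabp1* was at its highest at day 6 under the label WT, whereas under the label KO day 6 was below day 4. Of both binding proteins together, *Crabp2* made up 83.6% at day 4 and 53.4% at day 6 in the libraries labelled WT, and *Crabp1* 87.9% in spinal cord.

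Neither gene that acts on retinaldehyde passed 2-fold between labels. *Dhrs3*, which limits RA synthesis by reducing retinaldehyde, was at 2.10 and 2.45 FPKM in ES cells labelled WT and KO, at 0.822 and 0.624 FPKM at day 2, at 18.4 and 20.0 FPKM at day 4 and at 51.3 and 42.2 FPKM at day 6. Spinal column had 24.2 and 20.7 FPKM and spinal cord 6.94 FPKM. It was low at day 2 and high from day 4 on, and the libraries of each pair stayed within 1.32-fold of each other.

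*Aldh1a2*, the main RA-synthesizing enzyme of the embryo, was the gene of the newborn tissue. It was at 1.46 and 1.39 FPKM in ES cells labelled WT and KO, at 0.965 and 1.19 FPKM at day 2, at 1.01 and 1.26 FPKM at day 4 and at 4.49 and 2.36 FPKM at day 6. In spinal column it was at 20.3 and 13.7 FPKM and in spinal cord at 25.1 FPKM, its highest level. *Aldh1a2* is also a gene of meningeal cells, whose markers stand in the list above: *Foxc1* was at 6.73 FPKM in spinal column labelled WT and 4.36 FPKM in cord, *Foxd1* at 4.92 and 2.70 FPKM, and *Tbx18* at 1.09 and 1.22 FPKM. Their part in the level of *Aldh1a2* was not tested.

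**Figure D2:**
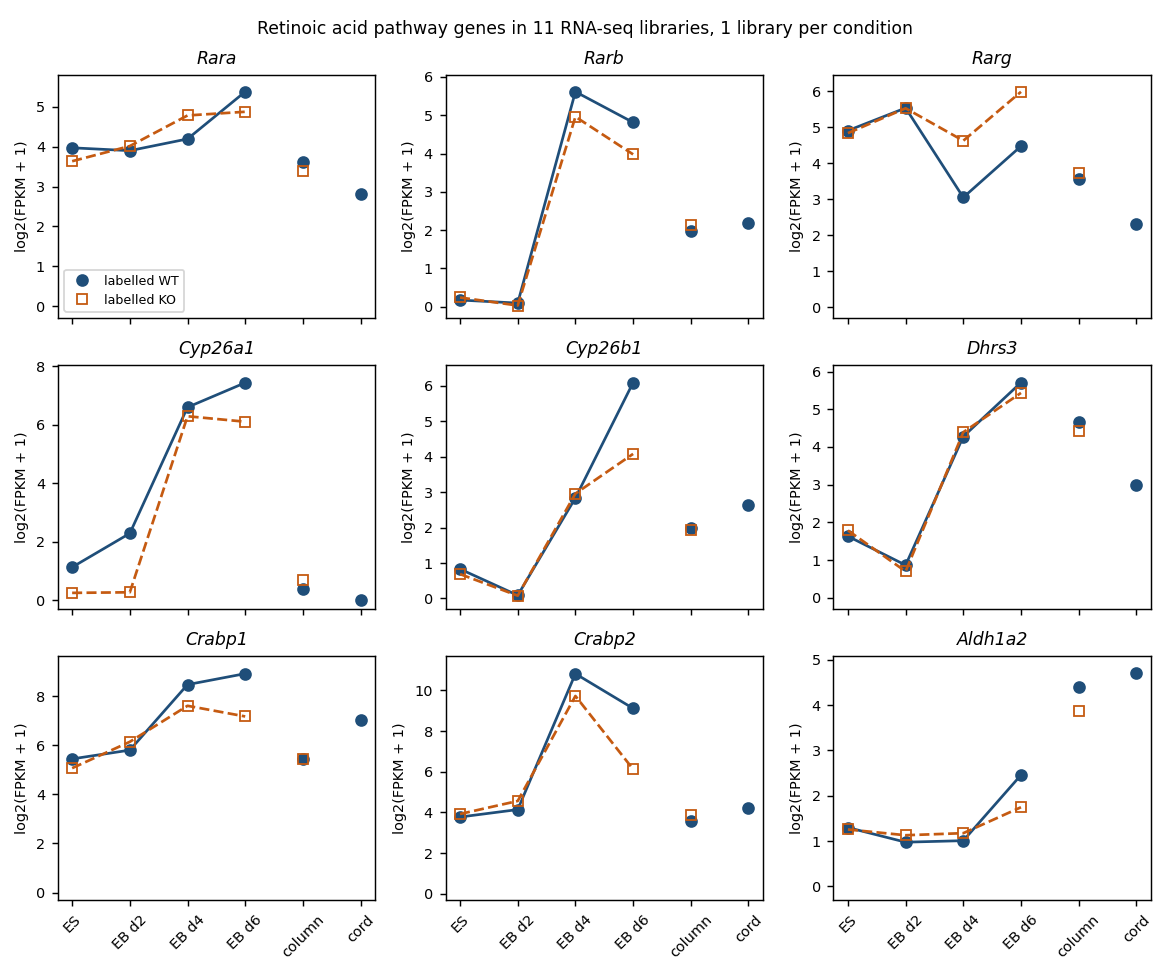
Level of each of the 9 genes as log2(FPKM + 1) (vertical axes, each panel with its own range) in ES cells, EBs at days 2, 4 and 6, spinal column and spinal cord (horizontal axis), 1 library per point. Filled circles are libraries labelled WT, open squares libraries labelled KO, and lines join the culture series. Rarb, Cyp26a1, Cyp26b1, Dhrs3 and Crabp2 climb between days 2 and 4, and Aldh1a2 is highest in newborn tissue.

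The steps of the culture were counted next, each past 2-fold among loci above 1 FPKM in at least 1 of both libraries compared. Successive steps share a library, and each step crosses tables normalized separately. From ES cells to day 2 under the label WT, *Cyp26a1* was higher (5.26% of 12278 loci were) and *Dhrs3* lower (7.96%). Under the label KO *Crabp1* was higher (6.01% of 12269 loci) and *Dhrs3* lower (8.37%). *Dhrs3* was under 1 FPKM at day 2, and where both libraries had to be above 1 FPKM the count was 1 under each label, *Cyp26a1* (3.61% of loci were higher) and *Crabp1* (4.21%). From day 2 to day 4 under the label WT, 6 of 9 genes were higher (15.6% of 12564 loci), namely *Rarb*, *Cyp26a1*, *Cyp26b1*, *Crabp1*, *Crabp2* and *Dhrs3*, and *Rarg* was lower (13.8%). The same 6 genes were higher under the label KO (15.4% of 12653 loci) and none was lower. *Rarb*, *Cyp26b1* and *Dhrs3*, and under the label KO *Cyp26a1*, were counted through their day 4 level alone. With both libraries above 1 FPKM, 3 genes were higher under the label WT (11.3% of 10858 loci) and 1 lower (9.03%), and 2 were higher under the label KO, *Crabp1* and *Crabp2* (10.3% of 11275 loci). Over this step the log2 ratio of *Rarb* was 9.43 under the label WT and 10.34 under the label KO, that of *Crabp2* 6.76 and 5.22, that of *Cyp26b1* 6.60 and 6.93, and that of *Cyp26a1* 4.63 and 8.53. The median log2 ratio of the 9 genes was 4.48 under the label WT and 5.002 under the label KO, against 0.09 and 0.09 for all expressed loci. Of the 4 genes at which a DR5 is printed above, 3 were higher in this step under each label, and of the 5 others, 3.

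From day 4 to day 6 the calls under the 2 labels overlapped in part, with *Rarg*, *Cyp26b1* and *Dhrs3* higher and *Crabp2* lower under both. Under the label WT, 5 of 9 genes were higher (17% of 12800 loci), *Rara*, *Rarg*, *Cyp26b1*, *Aldh1a2* and *Dhrs3*, and *Crabp2* was lower (9.95%). Under the label KO, *Rarg*, *Cyp26b1* and *Dhrs3* were higher (12.4% of 13013 loci), and *Rarb* and *Crabp2* were lower (11.1%). *Cyp26b1* was 10.9-fold higher at day 6 than at day 4 under the label WT and 2.35-fold higher under the label KO. *Crabp2* was 3.26-fold lower under the label WT and 12.3-fold lower under the label KO. Over this step ES cell markers were past 2-fold higher in 6 of 6 under the label WT and 5 of 6 under the label KO. Of 8 expressed meninges and fibroblast markers, 7 and 6 were higher. All 6 motor neuron markers were higher under the label WT, and under the label KO the 1 expressed was lower. The part of these cell types was not tested. Whether the steps differ between labels was not tested.

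The question the study put to these libraries is what differs between WT and KO, and the count of RA pathway genes past 2-fold was 1 of 9 in ES cells and again in EBs of day 2, then 2 of 9 in EBs of day 4 and 5 of 9 in those of day 6. The share of all loci past 2-fold, given beside each count, was also larger at days 4 and 6. In ES cells, 1 of 9 genes was past 2-fold, *Cyp26a1*, lower under the label KO (0.591% of 12021 loci were lower). At day 2 it was again *Cyp26a1* alone, lower (1.37% of 11957 loci), with a log2 ratio of -4.22. *Cyp26a1* was under 1 FPKM in the library labelled KO at both points, and with both libraries above 1 FPKM the count was 0 in ES cells (0.564% of loci were past 2-fold either way) and 0 at day 2 (1.07%). ES cell markers did not differ past 2-fold at either point, with 0 of 6 in each. At day 4, *Rarg* was higher, with a log2 ratio of 1.70 (12.1% of 12549 loci were higher), and *Crabp2* lower, at -1.09 (4.44%). At this point all 6 ES cell markers were past 2-fold higher and all 6 neural progenitor markers past 2-fold lower in the library labelled KO. Of the meninges and fibroblast markers 7 of 8 expressed, and of the primitive endoderm and trophectoderm markers 4 of 7, were also past 2-fold higher there. Of the meninges and fibroblast markers 1 was past 2-fold lower, *Foxd1*, at 6.04 FPKM labelled WT and 1.49 FPKM labelled KO. The part of these cell types was not tested.

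At day 6, 4 of 9 genes were lower under the label KO (9.91% of 12996 loci were lower), *Crabp2* at -3.01 on the log2 scale, *Cyp26b1* at -2.08, *Crabp1* at -1.75 and *Cyp26a1* at -1.35. *Rarg* was higher, at 1.55 (10.5%). *Aldh1a2* at -0.93, *Rarb* at -0.88, *Rara* at -0.52 and *Dhrs3* at -0.28 did not pass 2-fold. The median log2 ratio of the 9 genes was -0.93, against 0.00 for all expressed loci. All 6 motor neuron markers, all 8 neuronal markers and 5 of 6 neural progenitor markers were past 2-fold lower in the same library, and 4 of 6 ES cell markers, 5 of 8 meninges and fibroblast markers and 3 of 7 primitive endoderm and trophectoderm markers past 2-fold higher. Of the meninges and fibroblast markers 1 was again past 2-fold lower, *Foxd1*, at 9.19 FPKM labelled WT and 2.89 FPKM labelled KO. The part of these cell types in the differences of the 9 genes was not tested. In spinal column 0 of the 9 genes, 8 of them expressed, passed 2-fold in either direction (17.6% of 14249 loci did), although 5 of 8 neuronal markers were past 2-fold lower under the label KO. The largest departures there were those of *Cyp26a1*, at 0.97 on levels under 1 FPKM, and *Aldh1a2*, at -0.56.

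**Figure D3:**
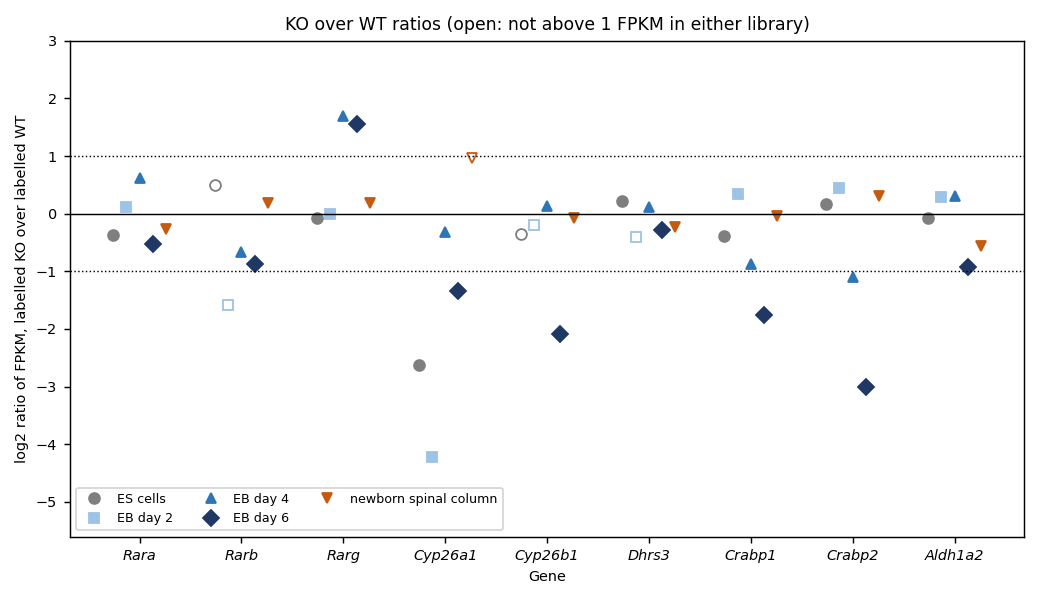
Log2 ratio of FPKM, library labelled KO over library labelled WT (vertical axis), for the 9 genes (horizontal axis) in 5 comparisons, 1 library against 1. Dotted lines mark 2-fold and open symbols mark genes not above 1 FPKM in either library. Cyp26a1 stands lowest in ES cells and at day 2, Crabp2 lowest at day 6, and Rarg is the gene above the upper line.

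Other retinoid pathway genes were described from a list of 29 genes found in the tables. In ES cells and at day 2, 0 of 15 expressed genes of the list were past 2-fold between labels. The shares of all loci given above are the measure for the counts that follow. At day 4, 2 of 18 were higher (12.1% of loci) and 1 lower (4.44%). The higher genes were *Aldh1a1*, a retinaldehyde dehydrogenase, at 0.668 FPKM labelled WT and 1.48 FPKM labelled KO, and *Nrip1*, a ligand-dependent corepressor, at 5.37 and 10.99 FPKM. The lower gene was *Fabp5*, a fatty acid-binding protein that can also carry RA, at 302 and 73.2 FPKM. At day 6, 3 of 21 were higher (10.5% of loci), *Adh7* and *Adh1*, which are alcohol dehydrogenases, and the coactivator *Ncoa3*. Another 2 were lower (9.91%), among them *Fabp5*, at 497 and 61.6 FPKM. The median log2 ratio of the list was 0.02 at day 6. *Fabp5* has processed copies in the genome, so its level is less certain. In spinal column 3 of 23 were higher, *Ttr*, *Rbp2* and *Fabp5*, and 4 lower, among them *Nrip1* and *Ncoa3*, where 17.6% of loci were past 2-fold either way. Of the RAR partners, *Rxrb* lay between 14.7 and 27.6 FPKM in all 11 libraries. *Rxra* was at 4.15 FPKM at day 2 and 20.4 FPKM at day 4 under the label WT, and *Rxrg* ran from 0.0911 FPKM at day 4 under the label WT to 23.2 FPKM in spinal column labelled KO.

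Genes known to respond to RA were taken from a list of 21, all found. From day 2 to day 4 under the label WT, 19 of 21 were past 2-fold higher (15.6% of loci) and none lower, with the largest ratios in *Hoxb5*, *Hoxb4* and *Stra8*, and under the label KO 20 of 21 were higher (15.4%). Most of them were under 1 FPKM at day 2, and with both libraries above 1 FPKM 5 of 7 were higher under the label WT (11.3%) and 5 of 6 under the label KO (10.3%). The median log2 ratio of the list was 7.15 under the label WT and 6.25 under the label KO. *Stra6*, a retinol transporter, was at 12.7 FPKM at day 4 labelled WT and 12.3 FPKM labelled KO. At day 4, 5 of 21 were past 2-fold lower under the label KO (4.44% of loci), led by *Hoxa4*, *Pax6* and *Hoxb4*, and 3 higher (12.1%), *Cdx1*, *Hoxb1* and *Nrip1*.

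At day 6 the response genes were mostly lower under the label KO: 14 of 20 expressed genes were past 2-fold lower (9.91% of loci) and 2 higher (10.5%), with a median log2 ratio of -1.88. *Hoxb5* was at 291 and 12.0 FPKM, *Nr2f1*, an orphan receptor gene, at 53.5 and 3.21 FPKM, and *Hoxb4* at 68.3 and 6.18 FPKM. *Stra6*, at 16.5 and 19.6 FPKM, did not pass 2-fold. *Cdx1*, a caudal homeobox gene, was higher, at 17.7 and 78.1 FPKM, as was *Tgm2*, a transglutaminase, at 16.3 and 33.3 FPKM. Several genes of the list, *Pax6* and *Lhx1* among them, are also neural genes, and *Pax6* is in the progenitor list above. In spinal column 2 of 17 were lower, *Nrip1* and *Stra6*, and *Rarres2* was higher, where 17.6% of loci were past 2-fold either way.

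**Figure D4:**
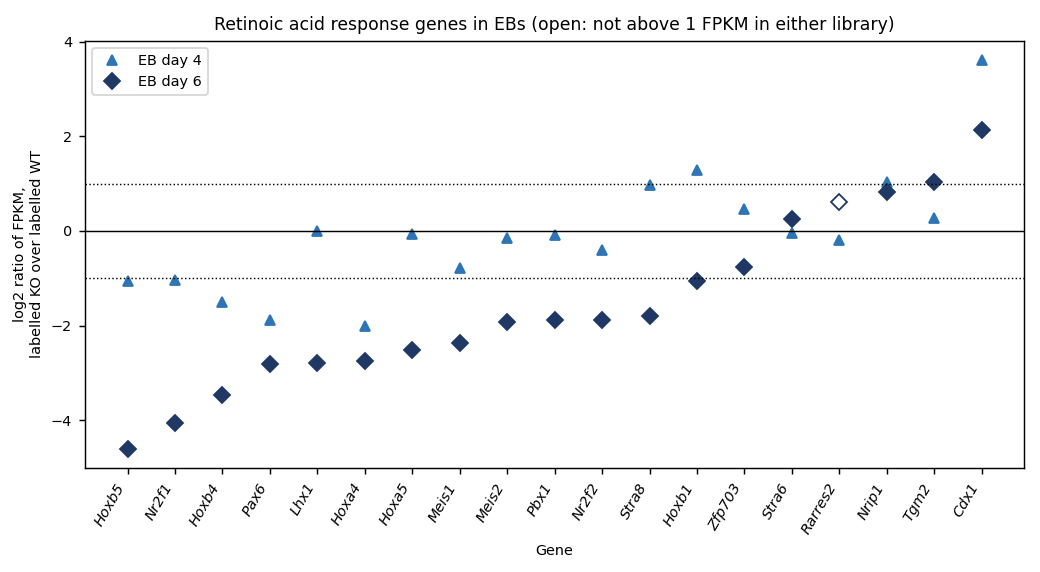
Log2 ratio of FPKM, library labelled KO over library labelled WT (vertical axis), for 19 of the 21 RA response genes (horizontal axis, ordered by the day 6 ratio) at day 4 (triangles) and day 6 (diamonds), 1 library against 1. Dotted lines mark 2-fold. At day 6, 13 of the plotted genes lie below the lower line and Cdx1 and Tgm2 above the upper one.

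Newborn tissue was set against ES cells next, where a large share of all loci passed 2-fold. In spinal cord 5 of 9 genes were past 2-fold higher than in ES cells (30.4% of 14378 loci were), with log2 ratios of 4.67 for *Rarb*, 3.98 for *Aldh1a2*, 2.63 for *Cyp26b1*, 1.60 for *Dhrs3* and 1.47 for *Crabp1*. *Rarg*, at -3.00, and *Rara*, at -1.41, were lower (35.7%), and *Cyp26a1*, at 1.30 FPKM in the ES library of this table, was listed at 0 in cord and counted with them. With both libraries above 1 FPKM, 3 of 6 genes were higher (19.4% of 10712 loci) and 2 lower (36.6%). The counts of lower genes were near the shares of all loci. *Crabp2* was the gene that did not pass 2-fold, at 0.36. Spinal column labelled WT had more *Rarg* and *Dhrs3* than spinal cord (17.3% of 14211 loci were higher), at 1.45 and 1.80, and less *Crabp1* (16%), at -1.58. Of 8 cartilage and bone markers, 7 were past 2-fold higher in column and 1 lower, and all 4 astrocyte and radial glia markers were lower. The part of these cell types was not tested. The column was lumbar and the level of the cord is not stated, so tissue and level cannot be told apart. In spinal cord 15 of 19 expressed RA response genes were also past 2-fold higher than in ES cells (30.4% of loci) and 4 of the 6 above 1 FPKM in both libraries (19.4%), with *Nr2f1*, *Hoxb5* and *Meis1* leading.

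The genes whose course over the 11 libraries was most like that of each pathway gene were taken as the 3 with the highest Pearson r of log2(FPKM + 1) among 15796 named loci. These r values describe libraries that share a differentiation series and, in pairs, a table. Among the 3 nearest to *Rarb* were *Hoxb2* at 0.974 and *Hoxa2* at 0.972. Among the 3 nearest to *Cyp26b1* were *Cotl1* at 0.985 and *Hoxa5* at 0.972, and nearest to *Cyp26a1* were *Mdk* at 0.981, *Pbx2* at 0.979 and *Stra8* at 0.971. *Crabp1* had *Rbm4b* at 0.956, *Hoxb4* at 0.951 and *Tlcd5* at 0.948, and *Crabp2* had *Igdcc3* at 0.978, *Grifin* at 0.976 and *Sp8* at 0.974. *Rarg* had *Def6* at 0.981, *Zbtb7b* at 0.971 and *Tmc8* at 0.968. *Aldh1a2* had *Vamp2*, a synaptic vesicle protein, at 0.994, *Atg9a* at 0.991 and *Csdc2* at 0.990. *Dhrs3* had *Efnb1* at 0.964, *Pth1r* at 0.959 and *Adamts7* at 0.951, and *Rara* had *Nfkbie* at 0.944, *Chic2* at 0.943 and *Dmrta2* at 0.942. Within the pathway the closest pairs were *Cyp26a1* with *Crabp2* at 0.902 and *Crabp1* with *Crabp2* at 0.895, and *Rarg* and *Aldh1a2* ran against each other at -0.668.

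ChIP-seq was done on EBs at a later day than the last RNA-seq time point, with 10415 TAF9B peaks and 8620 POL2 peaks. A TAF9B peak with its midpoint within 50 kb of a start site was found for 8 of the 9 genes, where 54.4% of 22380 coding genes had one. With peaks scoring above the median of the list alone it was 5 of 9, against 38.4% of coding genes. Neither peak of *Crabp1* had its nearest start site at *Crabp1*. The *Rarg* peaks above the median, of scores 153 and 152, had theirs at *Itgb7* and *Espl1*. A POL2 peak was found for 8 of 9, against 55.6%. *Aldh1a2* was the gene with neither. A POL2 peak lay over a start site of 6 genes, *Rara*, *Rarb*, *Rarg*, *Cyp26a1*, *Cyp26b1* and *Dhrs3*, against 30.4% of coding genes, and over none of *Crabp1*, *Crabp2* or *Aldh1a2*. Of the 24 TAF9B peaks near the 9 genes, 12 shared at least 1 bp with a POL2 peak, where 33.3% of all TAF9B peaks did. The genes have different numbers of start sites, from 1 for *Cyp26a1* to 8 for *Rara*, which widens the reach of the window.

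*Rara* had the most TAF9B peaks, 8, of which 5 shared bases with POL2. The strongest inside the gene (chr11:98820556-98821138, score 201) lay in an intron 879 bp upstream of the nearest start site. The adjoining peak printed above, score 68.1, lay 404 bp upstream of the same cluster of starts and was covered by a POL2 peak along all 244 of its bases. The peak with the highest score, 235, lay 17.2 kb away, nearer to a start site of *Gjd3*. POL2 peaks covered 23.1% of the gene.

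*Rarb* showed the opposite arrangement. Its DR5-bearing start site lay under a POL2 peak of score 1143 (chr14:17407264-17408596), the highest POL2 score at the 9 genes, and no TAF9B peak lay there. The single TAF9B peak within reach, score 59.7, was 23.0 kb upstream of the distal start site. At *Rarg* a TAF9B peak of score 52.0 (chr15:102076851-102076998) lay 6.5 bp from an internal start site, inside a POL2 peak of score 125. This score is close to the lowest in the TAF9B list.

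At the degrading enzymes, *Cyp26a1* had 1 TAF9B peak of score 64.5 in a coding exon, 1.05 kb downstream of the start, entirely within the POL2 peak of score 425 that covers the start and the DR5. *Cyp26b1* had a TAF9B peak of score 98.4 located 1.09 kb upstream of its start and another of score 99.2 in an intron, neither sharing bases with POL2, while POL2 peaks covered 58.0% of the gene, the highest share of the 9. *Dhrs3* had 1 TAF9B peak of score 75.6, 485 bp upstream of the start and within POL2, and 11 POL2 peaks within reach, the strongest of score 1077, which covered 37.7% of the gene. The TAF9B peaks nearest to the starts of *Dhrs3* (chr4:144482146-144482344, plus strand) and *Cyp26b1* (chr6:84544714-84544948, shown on the minus strand of the gene) are printed because they hold none of the 3 repeats and so set the *Rara* peak beside others of the pathway.

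Dhrs3 TAF9B peak: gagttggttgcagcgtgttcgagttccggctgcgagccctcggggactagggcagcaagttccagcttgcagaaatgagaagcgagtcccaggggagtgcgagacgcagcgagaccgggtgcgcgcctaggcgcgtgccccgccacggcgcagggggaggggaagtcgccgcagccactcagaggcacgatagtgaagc

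Cyp26b1 TAF9B peak: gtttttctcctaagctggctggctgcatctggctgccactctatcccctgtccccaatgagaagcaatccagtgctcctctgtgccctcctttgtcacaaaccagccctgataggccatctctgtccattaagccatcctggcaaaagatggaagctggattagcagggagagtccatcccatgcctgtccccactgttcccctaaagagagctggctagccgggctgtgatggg

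The *Dhrs3* peak held 66.8% G and C with 20 CG pairs, the *Rara* peak 68.0% with 18, and the *Cyp26b1* peak printed here 55.3% with 1. The intronic *Cyp26b1* peak held 58.8% with 17 CG pairs and the *Cyp26a1* peak 62.6% with 14.

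At the binding proteins the peaks lay away from the genes. Both TAF9B peaks within 50 kb of *Crabp1*, of scores 84.0 and 51.2, were 26.2 kb or more upstream and had their nearest start site at *Wdr61*. Of 4 TAF9B peaks near *Crabp2*, 1 had *Crabp2* as the gene of its nearest start site. That peak (chr3:87764760-87765094, score 214) lay 8.86 kb downstream of the *Crabp2* start, beyond the end of the gene and fully inside a POL2 peak of score 241. *Crabp1* and *Crabp2*, with the highest FPKM of the 9 genes at day 6, thus had no POL2 peak on the gene in the EBs used for ChIP. The RNA and the ChIP came from different clones and days.

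**Figure D5:**
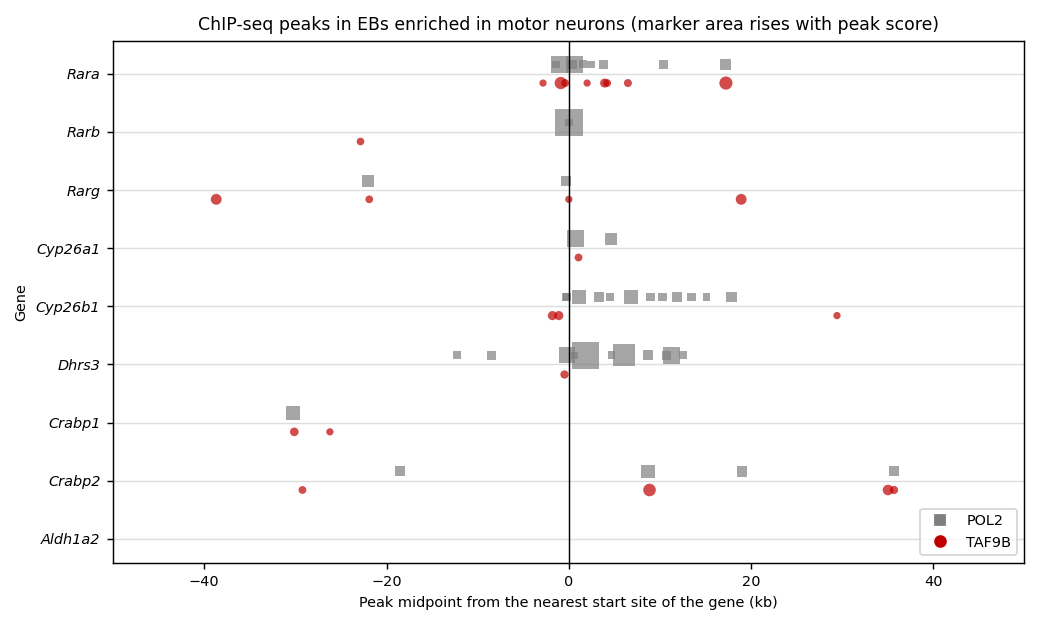
Midpoints of TAF9B peaks (circles) and POL2 peaks (squares) as the distance in kb from the nearest start site of each of the 9 genes (horizontal axis, upstream to the left), with marker area rising with the deposited peak score, 1 ChIP library each. Rara, Cyp26b1 and Dhrs3 have clusters at the start, Crabp1 has distant peaks only, and Aldh1a2 has none.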

How the data were processed

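RNA-seq was deposited as 6 tables, each a pair of poly-A libraries, in which the authors mapped reads to RefSeq genes with TopHat and computed FPKM with Cuffdiff on mm9, per the labels and the study's methods. Versions and options are not given in the sources used here. The deposited columns of fold changes and p-values between the libraries of a pair are the authors' own comparisons and were not used. For ChIP-seq the authors aligned reads with Bowtie on mm9 and deposited MACS peaks, each with a score. A role of IgG in peak calling is not given in the sources used here, and the IgG library was not analysed here.

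The tables were joined on the leading accession and locus, which left 23109 of 23152 loci (43 repeated keys removed). Symbols came from RefSeq (22793 loci matched). The ES library labelled WT stands in 2 tables, whose values differ by a near-constant factor of 1.09. Values from the table with its KO partner were used, except against spinal cord. Log2 ratios have no pseudocount. Past 2-fold means a ratio over 2 for a locus above 1 FPKM in at least 1 of both libraries. A locus at 0 in 1 library counts as past it. With 1 library per condition no test was made.

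Peaks were assigned by midpoint within 50 kb of GENCODE vM1 start sites on NCBIM37, whose chromosome lengths are those of mm9, and 13 TAF9B and 11 POL2 peaks on other chromosome names had no sequence. Sequences were read from that genome. Positions are 1-based. Genes named are the 9 pathway genes, *Taf9b*, the 3 largest rises and falls past 2-fold per list and comparison, and the 3 most similar loci. Some genes of these lists are not reported here by name. *Stra6*, *Rxra* and *Rxrb* were also named after their values were seen, as were marker genes. The pathway genes and lists were chosen with earlier results of these data known. Counting and motif search were tested on simulated data. Scripts ran in Python 3.11.15 (pandas 2.3.3, numpy 2.4.6, pysam 0.24.0, matplotlib 3.10.9).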

Additional observations from a re-analysis of the deposited data

Results flagged for a closer look

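Among *Taf9b* and the 9 RA pathway genes, *Taf9b* was the one past 2-fold in opposite directions in culture and in tissue. Its log2 ratio, library labelled KO over library labelled WT, was 2.51 before differentiation. In EBs it was 2.98 (day 2), 1.12 (day 4) and 1.55 (day 6). In newborn spinal column it was -1.01. With 1 library on each side the difference between culture and tissue was not tested. Of the other retinoid genes named above, *Fabp5*, *Nrip1* and *Ncoa3* also passed 2-fold in opposite directions in EBs and spinal column. Groups of 1 library allow no check for outlying replicates.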

How the results depend on the processing

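Counts of pathway genes past 2-fold moved most where a gene is near 0 in 1 library. In ES cells the count between labels, 1, became 0 with a pseudocount of 1 FPKM and 0 when both libraries had to be above 1 FPKM. At day 2 it went from 1 to 2 with no minimum FPKM and to 0 with both above 1 FPKM. The count for ES cells to day 2 under the label WT, 2, became 1 with a pseudocount of 1 FPKM and 1 with both above 1 FPKM, and under the label KO 2 became 4 with no minimum and 1 with both above it. With both libraries above 1 FPKM, days 2 to 4 gave 4 in place of 7 under the label WT and 2 in place of 6 under the label KO, and spinal cord against ES cells gave 5 in place of 8. Only TAF9B peaks with a score above the list's median left 5 of 8 genes with a peak within 50 kb. The other 66 recomputed counts, those at days 4 and 6 between labels included, stayed within 1.5 times. Of the recomputed log2 ratios of single genes, 74 moved by more than the 1.09-fold shift between both tables of the ES library and 288 did not, and no called ratio changed sign. No analysis that pairs the labels across time points was run. Leaving out a replicate was not possible because each condition has 1 library. FPKM without counts gives no precision for low values such as those of *Cyp26a1* before day 4.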

Other observations

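Both ES cell lines were grown on feeder fibroblasts. The meninges and fibroblast markers summed to 330 FPKM in the ES library labelled WT and 359 FPKM in that labelled KO, against 11.7 to 132 FPKM in the EB libraries. Their part in the ES cell values of the RA pathway genes was not tested. Across the 9 genes the number of libraries above 1 FPKM ran from 6 of 11 for *Cyp26a1* to 11 of 11 for *Rara*, *Rarg*, *Crabp1* and *Crabp2*.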
